A study of Mus musculus with 6 samples.

Results

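The Hox cluster genes of cultured mouse muscle stem cells (MuSCs) were described over 6 RNA-seq libraries. Members were taken by symbol alone, as every row named Hoxa, Hoxb, Hoxc or Hoxd followed only by a number, which gave 33 of the 18943 genes in the table. The Hoxa cluster contributed 11 of them, Hoxb 8, Hoxc 9 and Hoxd 5, and Hoxb1, Hoxb13, Hoxd1, Hoxd10, Hoxd11 and Hoxd12 were not analysed here. The libraries came from MuSCs sorted by FACS from wild-type C57BL/6 mice aged 8 weeks and kept in culture for 5 days with the solvent DMSO, with endothelin-3 (ET-3) or with neurotensin (NT), 2 libraries per group. ET-3 and NT are peptides that act on G-protein-coupled receptors. The labels give 100 nM for both peptides, whereas the study's methods name higher concentrations. Nothing in the labels ties libraries to separate animals or cultures, so the p-values measure only the spread between these libraries, which may be technical. The muscle from which the cells were sorted is not given either.

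Hox genes encode homeodomain transcription factors that lie in 4 clusters, ordered from paralog group 1 at the 3' end to paralog group 13 at the 5' end. Groups with low numbers are expressed toward the head, groups with high numbers toward the tail, and the posterior genes of the Hoxa and Hoxd clusters also pattern the limb from shoulder to digits. Adult MuSCs, like other mesodermal cells, keep a Hox pattern that reflects the body region from which they arose. Hox proteins bind DNA together with cofactors of the TALE homeodomain class (Pbx, Meis and Pknox), and Polycomb and Trithorax proteins keep the clusters repressed or active.

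The deposited values, called scaled read counts here, are rounded products of a read count and a factor that was the same for all genes of a library. Their sums were between 4214458 and 4600575 per library. The factors recovered from the values put the reads behind them at between 3629256 and 5396233, so that counting error alone comes to 8.84 to 10.9% at a value of 100 and 27.9 to 34.5% at a value of 10. The study's methods give a far higher average number of sequenced reads per library and do not state how many fell on genes. Differences were tested with limma on log2(value + 1) in genes whose mean value reached 5. A gene passed the test at an adjusted p (Benjamini-Hochberg over 13921 genes) of at most 0.05, and was called when it also differed at least 2-fold. Fold changes are on the log2(value + 1) scale, which understates those of low genes. The ET-3 pair and the NT pair each differed by less than sampling noise (mean chi-square per gene 0.888 and 0.941, against 1.44 for the DMSO pair), so these pairs may be technical repeats. Each was kept as 2 libraries, as labelled, and an alternative in which each treated pair counted as 1 sample is given where it ended a result.

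Of 8 MuSC and myoblast markers all but Chodl had a mean value of at least 5, and all 7 markers of differentiating muscle fell with both peptides. Pax7, the transcription factor that defines MuSCs, had scaled read counts of 857 and 1070 under DMSO, 1754 and 1730 under ET-3 and 1653 and 1599 under NT. Of the 7 tested MuSC and myoblast markers 2 rose (Pax7 and Vcam1) and 3 fell with ET-3, and 2 rose and 5 fell with NT. Cdh15, the M-cadherin of MuSCs, fell most, from 1547 and 1746 under DMSO to 483 and 462 under ET-3 and 496 and 436 under NT. The summed value of Myog, Mymk, Ckm, Acta1, Myh3, Myh8 and Tnnt3 was 12509 to 13885 under DMSO, 400 to 439 under ET-3 and 301 to 397 under NT. Among markers of other cells, the summed value of 4 fibroadipogenic genes was 136 to 147 under DMSO and 64 to 90 with the peptides, that of 4 endothelial genes 12 to 24 and 85 to 107, that of 4 macrophage genes 34 to 35 and 24 to 53, that of 6 smooth muscle and pericyte genes 3345 to 3919 and 1024 to 1193, and that of 4 Schwann cell genes 160 to 182 and 641 to 713. Within the fibroadipogenic genes, Col15a1 went from 80 and 82 under DMSO to 0 or 1 in the treated libraries, whereas Ly6a rose with both peptides (log2 fold changes 0.83 and 0.98) and Pdgfra with NT (0.70). The Schwann cell genes did not move together either. Of 3 tested, 1 rose and 1 fell with ET-3, and 1 rose and 0 fell with NT. The smooth muscle genes Kcnj8 and Myh11 stayed under 5 in all 6 libraries, and 10 further markers of these 5 cell types were not analysed here. The part of these shifts in the Hox results was not tested. In such bulk libraries, fewer cells of a type and less RNA per cell cannot be told apart.

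MuSCs held transcripts from all 4 clusters, and the 6 genes with the highest mean level per kb over all libraries were in paralog groups 7 to 11 of Hoxa and Hoxc. A value of at least 1 was reached by 30 of 33 members in all 6 libraries, at least 3 by 26 and at least 5 by 25. The 3 members that fell below 1 somewhere were Hoxb8, Hoxd3 and Hoxd13. The Hox genes together took 0.0534 to 0.0658% of each library, or a summed value of 2442 to 2775.

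Divided by the length of their exons, the levels placed Hoxc10 at the top, with 106.3 to 133.1 per kb over the libraries and a mean of 122.4. Hoxc10 belongs to the posterior genes that are known for their expression in the hindlimb and lumbar region. Hoxa7 followed with a mean of 94.3 per kb, Hoxc11 with 92.5, Hoxa11 with 88.0, Hoxa10 with 71.3 and Hoxa9 with 58.2. Hoxa7, Hoxc11 and Hoxa11 overlapped in their library values per kb and could not be ordered, and with DMSO alone Hoxa11 stood at 38.5 and 43.3, below Hoxa9 at 44.6 and 43.4. In the DMSO libraries Hoxd8 at a mean of 62.3 and Hoxc6 at 55.9 stood above Hoxc9 at 47.9, Hoxa9 at 44.0, Hoxc13 at 41.2 and Hoxa11 at 40.9. Hoxa5 and Hoxd8 shared the next place at a mean of 48.8, followed by Hoxc6 at 47.4 and Hoxc9 at 46.1. These 4 genes also overlapped in their library values. Hoxc4, Hoxa4, Hoxa6, Hoxc13 and Hoxd9 lay between 36.1 and 22.7 per kb.

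**Figure D1:**
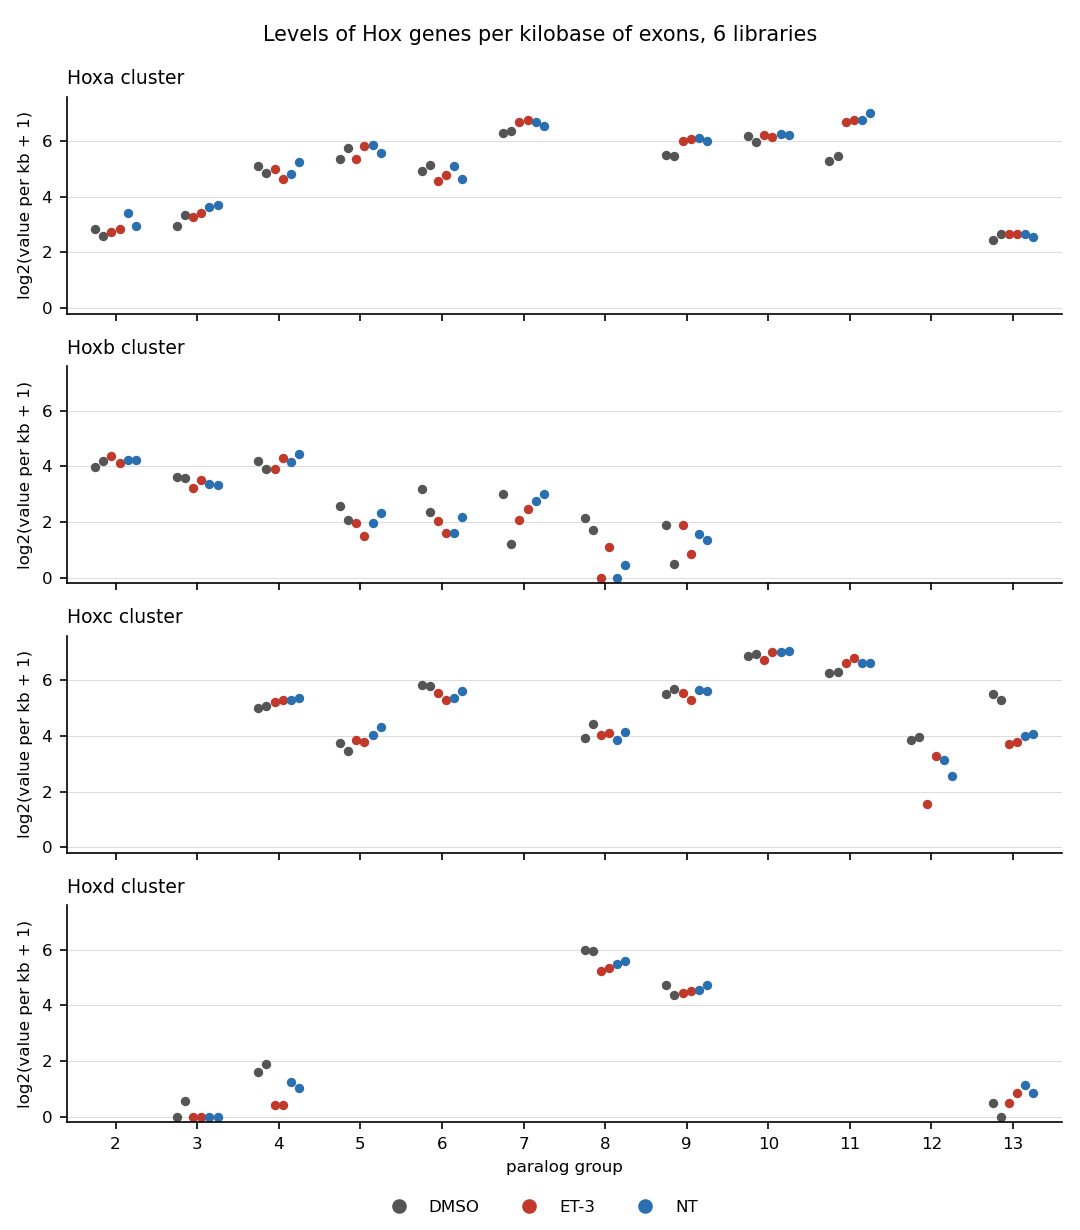
Levels of Hox genes as log2(scaled read count per kilobase of exons + 1), by paralog group (horizontal axis) and cluster (panels), with 1 point per library and gaps where a group has no gene or the gene is not shown. The highest points are in groups 7 to 11 of Hoxa and Hoxc, the Hoxb genes of groups 5 to 9 lie below those of groups 2 to 4, and Hoxd is represented mainly by groups 8 and 9.

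Levels were lower in the Hoxb and Hoxd clusters. The Hoxa genes made up 46.5% ± 3.87 (SD, n = 6 libraries) of the summed Hox level per kb and the Hoxc genes 40.3% ± 2.07, against 7.32% ± 1.43 for Hoxd and 5.88% ± 0.706 for Hoxb. Within Hoxb the anterior genes were highest, with means per kb of 17.3 for Hoxb2, 17.0 for Hoxb4 and 9.92 for Hoxb3, and no gene from Hoxb5 to Hoxb9 exceeded 4.86. Hoxd8 and Hoxd9 at 48.8 and 22.7 per kb held nearly all of the Hoxd signal, while Hoxd4 had a mean of 1.30, Hoxd13 of 0.604 and Hoxd3 of 0.0795. Hoxa13, which patterns the distal limb, was at a mean of only 5.06 per kb.

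Some gene models share exonic bases with others, which limits these levels. Reads that overlap several genes were left out by the authors. Hoxa11 shares 800 of its 2287 exonic bases with Hoxa11os on the other strand, and Hoxb3 shares 2250 of 4251 with Hoxb3os. Counted over unshared bases only, an alternative chosen after seeing the data, Hoxa11 ranked 1 at 135.3 per kb, Hoxc10 2 at 134.1 and Hoxa7 3 at 118.5. The Hoxc5 model (chr15:102967443-103017429) runs from within Hoxc10 to past Hoxc6. The Hoxa3 model (chr6:52169062-52213336) runs across Hoxa4, Hoxa5 and Hoxa6 and shares 1631 of 6014 exonic bases with other genes. The models of Hoxd3 and Hoxd4 share 2634 of 4191 and 1542 of 2948 exonic bases with other genes, among them each other, Gm28230 and Hoxd3os1. The values of Hoxa3, Hoxc5, Hoxd3 and Hoxd4 are therefore uncertain.

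With the peptides, the cluster shares shifted toward Hoxa. Hoxa supplied 40.8 and 42.5% of the summed level per kb with DMSO, 49.7 and 49.1% under ET-3 and 49.4 and 47.5% under NT. The share of paralog group 11, formed by Hoxa11 and Hoxc11, was 11.8 and 12.5% under DMSO, 20.8 and 21.2% under ET-3 and 19.5 and 21.1% under NT. Paralog group 10 stayed between 18.6 and 19.6% in all libraries. Paralog group 13 went the other way, from 5.14 and 4.42% under DMSO to 1.85 and 1.82% under ET-3 and 2.06 and 2.01% under NT. Within that group Hoxc13 had mean levels per kb of 41.2, 12.4 and 15.4 under DMSO, ET-3 and NT, Hoxa13 of 4.85, 5.26 and 5.06 and Hoxd13 of 0.201, 0.604 and 1.01.

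Of the 33 members, 28 had a mean value of at least 5 and were tested. With ET-3, 4 of them rose (Hoxa7, Hoxa9, Hoxa11 and Hoxc11) and 5 fell (among them Hoxc6, Hoxc12, Hoxc13 and Hoxd8), against 30.6% and 33.2% of all tested genes. At 2-fold, 1 was called higher and 2 lower, against 6.62% and 14.9% of all genes. With NT, 6 rose (Hoxa3, Hoxa7, Hoxa9, Hoxa11, Hoxc5 and Hoxc11) and 3 fell (among them Hoxc13 and Hoxd8), against 29.7% and 32.5%, and 1 was called higher and 2 lower, against 7.30% and 13.2%. The share of tested members that passed was 32.1% in each comparison, beside 63.7% and 62.2% over all genes. The median log2 fold change of the members was 0.00 under ET-3 and 0.10 under NT, beside -0.01 over all genes in both. Both comparisons use the same DMSO libraries.

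Both ET-3 libraries lay above both DMSO libraries for 6 tested members and below them for 9, against 38.9% and 40.7% of all tested genes. With NT, the count was 11 above and 7 below, against 38.9% and 41.7%. In every fit that left out 1 library, the share of all tested genes that passed was lower than in the main fit, for both peptides. Treating each treated pair as 1 sample left 2 members higher and 3 lower with ET-3, and 2 higher and 1 lower with NT, while the share of all tested genes that passed went to 28.7% and 24.8%. Without DMSO replicate 1, 3 members were lower with ET-3, and 2 were called higher with each peptide. Without NT replicate 1 or NT replicate 2, 3 were higher with NT and 1 was called lower with ET-3.

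The DNA around the start of 3 members that passed with both peptides, and of a neighbour that passed with neither, is shown to place these results. Promoter windows of 250 bases before and 50 bases after a RefSeq start (GRCm38.p6) were found for 17 of 33 members, in 18 windows. Capitals mark E-boxes (CANNTG, read on both strands), the sites bound by MyoD and other basic helix-loop-helix factors.
Hoxa11 (chr6:52245761-52246060, minus strand), higher with both peptides: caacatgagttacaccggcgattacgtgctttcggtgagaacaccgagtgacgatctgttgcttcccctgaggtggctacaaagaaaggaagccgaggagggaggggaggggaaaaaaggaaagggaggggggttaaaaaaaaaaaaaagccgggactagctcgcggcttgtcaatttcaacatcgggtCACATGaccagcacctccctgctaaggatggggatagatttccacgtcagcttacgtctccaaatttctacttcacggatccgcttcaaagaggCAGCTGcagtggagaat
Hoxa9 (chr6:52227321-52227620, minus strand), higher with both peptides: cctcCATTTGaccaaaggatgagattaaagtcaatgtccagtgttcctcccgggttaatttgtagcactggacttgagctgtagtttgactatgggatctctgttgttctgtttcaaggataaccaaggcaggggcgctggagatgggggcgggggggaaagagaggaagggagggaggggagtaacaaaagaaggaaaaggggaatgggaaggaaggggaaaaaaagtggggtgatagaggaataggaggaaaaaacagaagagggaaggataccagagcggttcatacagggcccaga
Hoxa10 (chr6:52240805-52241104, minus strand), passed with neither: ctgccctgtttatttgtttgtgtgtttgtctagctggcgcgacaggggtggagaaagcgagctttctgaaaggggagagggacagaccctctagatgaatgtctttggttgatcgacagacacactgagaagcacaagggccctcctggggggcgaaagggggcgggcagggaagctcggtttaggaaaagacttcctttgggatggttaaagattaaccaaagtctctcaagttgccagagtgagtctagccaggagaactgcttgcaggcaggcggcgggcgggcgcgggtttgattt
Hoxd8 (chr2:74704365-74704664, plus strand), lower with both peptides: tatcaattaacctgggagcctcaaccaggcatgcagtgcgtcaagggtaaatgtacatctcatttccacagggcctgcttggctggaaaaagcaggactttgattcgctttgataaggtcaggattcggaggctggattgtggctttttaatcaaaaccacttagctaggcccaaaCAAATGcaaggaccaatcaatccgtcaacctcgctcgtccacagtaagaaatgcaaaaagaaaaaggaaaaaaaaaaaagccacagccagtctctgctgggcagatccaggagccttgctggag

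The Hoxa11 window held 2 E-boxes, 61 bases upstream and 33 bases downstream of the start, the latter with the letters CAGCTG. The Hoxa9 and Hoxd8 windows held 1 each and this Hoxa10 window none. An E-box was present in 12 of the 18 Hox windows, and in 72.3% of all 32817 promoter windows of this length. CAGCTG was present in 16.3% of all windows, and CCAAT, found in the Hoxd8 window 62 bases upstream of the start, in 37.4%. CpG dinucleotides numbered 4 to 45 in the Hox windows and exceeded the median of all windows, 7, in 15 of 18. These matches describe letters and not bound sites.

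Hoxa11 (ENSMUSG00000038210, chr6:52242106-52245810), which patterns the forearm and shank segment of the limb, rose more than any other member. Its scaled read counts were 88 and 99 under DMSO, 235 and 246 under ET-3 and 244 and 295 under NT. All 4 treated libraries stood well above both DMSO libraries. The log2 fold change was 1.36 (SE 0.11, adjusted p = 2.44e-06) with ET-3 and 1.51 (SE 0.11, adjusted p = 1.22e-06) with NT. The result held under all 17 alternatives in both comparisons, with log2 fold changes of 1.27 to 1.44 for ET-3 and 1.38 to 1.65 for NT.

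The neighbours of Hoxa11 shifted less. Hoxa9, which has roles in the posterior body axis and in the proximal limb, had values of 249 and 242 under DMSO, 357 and 373 under ET-3 and 377 and 351 under NT. The treated libraries did not overlap with the DMSO libraries, and the log2 fold change was 0.57 (SE 0.06) in both comparisons, with adjusted p = 2.91e-05 and 3.27e-05. Hoxa10 lies between them and had 234 and 201, 239 and 232, and 249 and 244. Its log2 fold changes of 0.12 (SE 0.08, adjusted p = 0.247) and 0.18 (SE 0.08, adjusted p = 0.0834) did not pass, with 95% intervals of -0.07 to 0.31 and -0.01 to 0.37, although both passed when DMSO replicate 1 was left out (adjusted p = 0.0312 and 0.0170). In the same library, the ratio of Hoxa11 to Hoxa10 was 0.376 and 0.493 under DMSO, 0.983 and 1.06 under ET-3 and 0.980 and 1.21 under NT. On the other side of Hoxa11, Hoxa13 had 11 and 13, 13 and 13, and 13 and 12, with log2 fold changes of 0.11 and 0.06 that did not pass.

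Hoxa7, a gene of the thoracic region, had values of 224 and 237 under DMSO, 297 and 311 under ET-3 and 292 and 267 under NT. Its log2 fold change was 0.40 (SE 0.07, adjusted p = 8.28e-04) with ET-3 and 0.28 (SE 0.07, adjusted p = 0.00762) with NT. The NT result was lost without DMSO replicate 1 (adjusted p = 0.0690) or NT replicate 1 (adjusted p = 0.0853), and both were lost with each treated pair as 1 sample (adjusted p = 0.0630 and 0.101). Hoxc11, the Hoxc paralog of Hoxa11, had 152 and 159, 198 and 222, and 196 and 195. All treated libraries were above the DMSO libraries, with log2 fold changes of 0.43 (SE 0.09, adjusted p = 0.00160) and 0.33 (SE 0.09, adjusted p = 0.00781). The NT result of Hoxc11 did not pass without DMSO replicate 1 (adjusted p = 0.0609), NT replicate 1 (0.0549) or NT replicate 2 (0.0513), nor did either result with the treated pairs averaged (adjusted p = 0.0592 and 0.0843).

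Hoxa3 and Hoxc5 passed with NT. Hoxa3, which acts in the pharyngeal region, had 40 and 55 under DMSO, 52 and 58 under ET-3 and 69 and 73 under NT. Its log2 fold change was 0.22 (SE 0.19, adjusted p = 0.338) with ET-3 and 0.59 (SE 0.19, adjusted p = 0.0230) with NT. Hoxc5, whose model runs across its neighbours as that of Hoxa3 does, had 38 and 31, 41 and 40, and 47 and 59. Its log2 fold changes were 0.23 (SE 0.21, adjusted p = 0.359) and 0.60 (SE 0.21, adjusted p = 0.0296). Neither NT result passed in every fit that left out 1 library, and such fits have fewer samples. The Hoxa3 log2 fold change was 0.36 without DMSO replicate 1, 0.63 without NT replicate 1 and 0.55 without NT replicate 2. That of Hoxc5 was 0.75 without DMSO replicate 1, 0.46 without DMSO replicate 2 and 0.44 without NT replicate 2. The adjusted p of Hoxa3 was 0.123 without DMSO replicate 1, 0.0848 without NT replicate 1 and 0.123 without NT replicate 2, and that of Hoxc5 was 0.0502 without DMSO replicate 1, 0.147 without DMSO replicate 2 and 0.185 without NT replicate 2. Averaging the treated pairs gave 0.235 for Hoxa3 and 0.146 for Hoxc5.

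**Figure D2:**
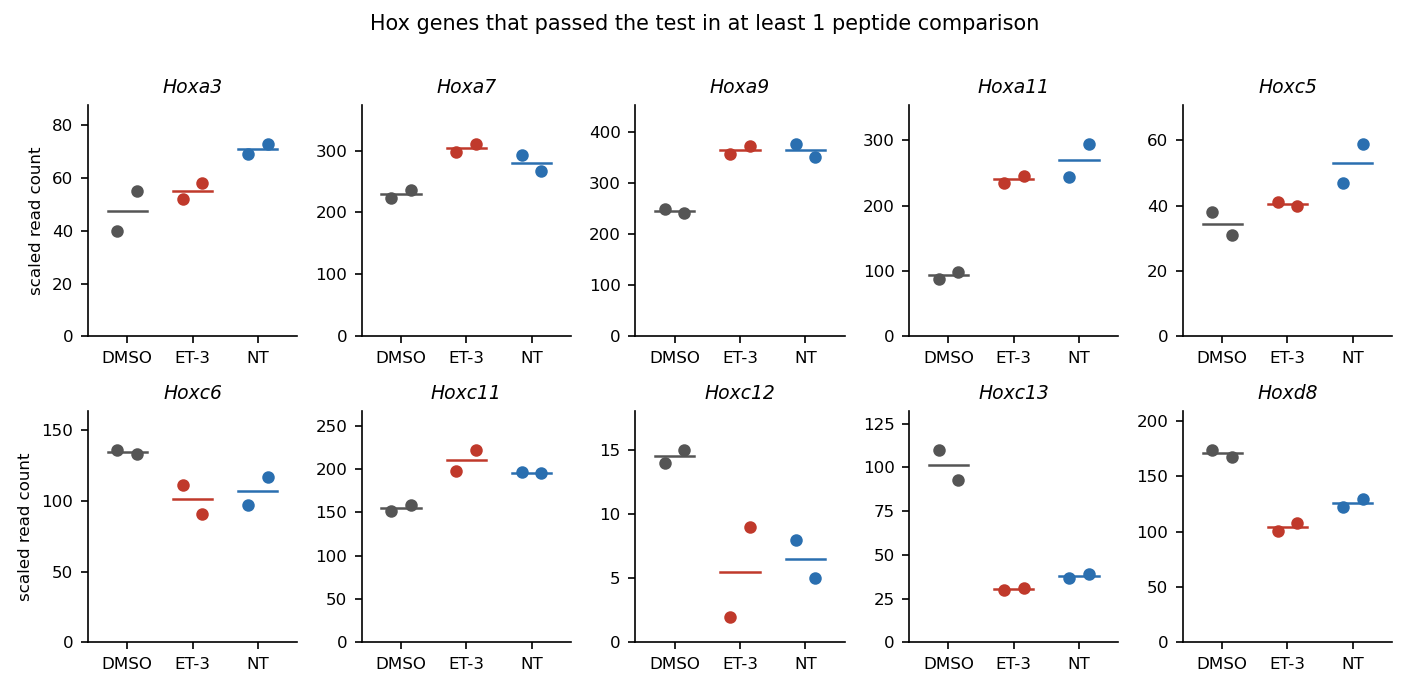
Scaled read counts (vertical axes, from 0) of 10 of the 11 Hox genes that passed the test in at least 1 peptide comparison, with 1 point per library and a line at the mean of each group of 2. The DMSO points of Hoxa11 at 88 and 99 lie below the treated points at 235 to 295, and those of Hoxc13 at 110 and 93 lie above the treated points at 30 to 39.

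Hoxc13 (chr15:102921103-102928814), the most posterior gene of its cluster and best known for its role in hair and nails, had the lowest log2 fold change of the tested members in both comparisons. It had 110 and 93 under DMSO, 30 and 31 under ET-3 and 37 and 39 under NT. No treated library reached the DMSO range. The log2 fold change was -1.70 (SE 0.18, adjusted p = 2.03e-05) with ET-3 and -1.39 (SE 0.18, adjusted p = 8.84e-05) with NT, and the result held under all 17 alternatives in each comparison. Relative to Hoxc10, which had 224 and 233, 203 and 245, and 243 and 254 and passed in neither comparison (log2 fold changes -0.03 and 0.12), the Hoxc13 value was 0.491 and 0.399 under DMSO, 0.148 and 0.127 under ET-3 and 0.152 and 0.154 under NT.

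Hoxc12, between Hoxc11 and Hoxc13, had low values of 14 and 15 under DMSO, 2 and 9 under ET-3 and 8 and 5 under NT. Both DMSO libraries were above all treated libraries. The log2 fold change with ET-3 was -1.50 (SE 0.54, adjusted p = 0.0334) and with NT -1.08 (SE 0.54, adjusted p = 0.109). The ET-3 log2 fold change was -0.63 without ET-3 replicate 1 and -2.37 without ET-3 replicate 2. The ET-3 result did not pass without DMSO replicate 1 (adjusted p = 0.194), DMSO replicate 2 (0.214), ET-3 replicate 1 (0.220), NT replicate 1 (0.0695) or NT replicate 2 (0.0679). The NT value passed without ET-3 replicate 1 (adjusted p = 0.0302) or ET-3 replicate 2 (0.0353).

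Hoxd8 fell while Hoxd9 next to it did not pass. Hoxd8 had 174 and 168 under DMSO, 101 and 108 under ET-3 and 122 and 130 under NT, so the groups did not overlap. The log2 fold change was -0.71 (SE 0.10, adjusted p = 1.64e-04) with ET-3 and -0.44 (SE 0.10, adjusted p = 0.00368) with NT, and the NT result had an adjusted p of 0.0637 with the treated pairs averaged. Hoxd9 had 55 and 42, 44 and 47, and 48 and 55, with log2 fold changes of -0.08 (95% interval -0.53 to 0.37) and 0.09 (-0.35 to 0.54). Hoxc6, a gene of the brachial and upper thoracic region, had 136 and 133, 111 and 91, and 97 and 117. Its log2 fold change was -0.42 (SE 0.14, adjusted p = 0.0230) with ET-3 and -0.33 (SE 0.14, adjusted p = 0.0583) with NT. The ET-3 result of Hoxc6 was lost without DMSO replicate 1 (adjusted p = 0.158), DMSO replicate 2 (0.135) or ET-3 replicate 2 (0.167), with each treated pair as 1 sample (0.0670) and with library totals as scaling (0.0599).

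**Figure D3:**
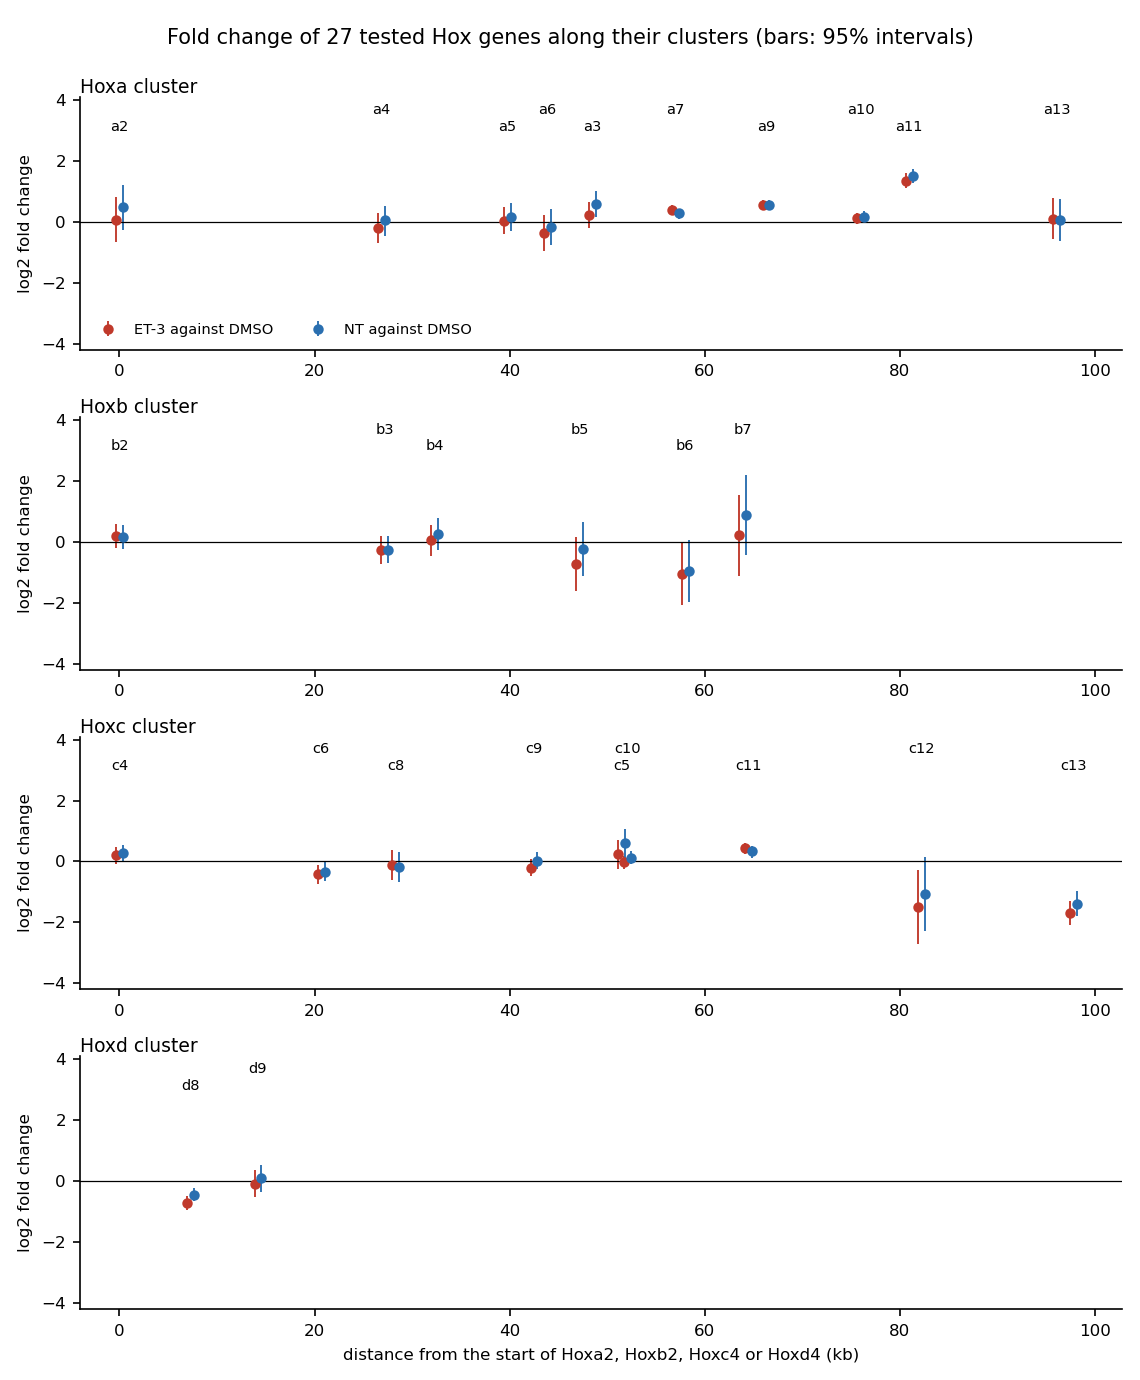
Log2 fold change against DMSO (vertical axis, bars are 95% intervals) of 27 of the 28 tested Hox genes by the distance of their start from that of Hoxa2, Hoxb2, Hoxc4 or Hoxd4 in kb (horizontal axis), for ET-3 in red and NT in blue. Hoxa11 stands at 1.36 and 1.51 between Hoxa10 and Hoxa13, whose intervals include 0, and Hoxc13 at -1.70 and -1.39 at the far end of its cluster. Starts are those of the gene models, whose length places Hoxa3 between Hoxa6 and Hoxa7 and Hoxc5 beside Hoxc10.

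The other 17 tested members passed in neither comparison. Their place in the clusters ranged from paralog group 2 to 13, and they included all 6 tested Hoxb genes. In the Hoxa cluster, Hoxa2 had 11 and 9 under DMSO, 10 and 11 under ET-3 and 17 and 12 under NT. Further along the cluster, Hoxa4 had 54 and 45 under DMSO, 49 and 38 under ET-3 and 44 and 59 under NT, Hoxa5 had 75 and 100, 75 and 105, and 108 and 87, and Hoxa6 had 26 and 30, 20 and 23, and 29 and 21. Within each of these genes, the spread between replicates was as wide as the difference between groups for at least 1 peptide. In the Hoxc cluster, Hoxc4 had 80 and 85, 93 and 98, and 98 and 102, Hoxc8 had 40 and 58, 43 and 46, and 38 and 47, and Hoxc9 had 109 and 124, 110 and 93, and 120 and 116. Hoxc4 was above DMSO in all 4 treated libraries, with log2 fold changes of 0.21 (adjusted p = 0.165) and 0.27 (adjusted p = 0.0773).

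In the Hoxb cluster, whose genes serve mainly the hindbrain, neck and trunk, no tested member passed. Hoxb2 had 51 and 61 under DMSO, 69 and 58 under ET-3 and 62 and 62 under NT, Hoxb3 had 48 and 47, 35 and 44, and 40 and 39, and Hoxb4 had 45 and 36, 36 and 48, and 43 and 54. Hoxb5, Hoxb6 and Hoxb7 had low values, with 14 and 9, 8 and 5, and 8 and 11 for Hoxb5, 16 and 8, 6 and 4, and 4 and 7 for Hoxb6, and 11 and 2, 5 and 7, and 9 and 11 for Hoxb7. Hoxb6 came closest, with log2 fold changes of -1.06 (SE 0.45, adjusted p = 0.0639) and -0.97 (SE 0.45, adjusted p = 0.0891). Hoxb7, whose DMSO libraries differed most, passed in both comparisons without DMSO replicate 1 (log2 fold changes 1.21 and 1.87, adjusted p = 0.0335 and 0.0115). Hoxb6 passed with ET-3 without DMSO replicate 2 (adjusted p = 0.0448).

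The 5 members that were not tested had mean values under 5. Hoxb8 had 9 and 6 under DMSO, 0 and 3 under ET-3 and 0 and 1 under NT, and Hoxd4 had 6 and 8, 1 and 1, and 4 and 3, so both were highest in the DMSO libraries. Hoxb9 ranged from 1 to 7 and Hoxd13 from 0 to 3. Hoxd3 had a value of 2 in DMSO replicate 2 and 0 elsewhere. A value of 0 does not exclude an expected count of up to 3 reads in a library, so the absence of Hoxd3 was not shown at this depth.

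NT and ET-3 were compared directly, and no member passed, while 0.647% of all tested genes were higher and 2.05% lower with NT. At an unadjusted p under 0.05, limma found 1 member, Hoxd8, with a log2 difference of 0.27 (NT minus ET-3, SE 0.10, 95% interval 0.04 to 0.49, adjusted p = 0.179), beside 19.9% of all tested genes at that threshold. Over the 28 tested members, the differences lay between -0.24 and 0.66, with 95% half-widths of 0.15 to 1.31. For Hoxa11 the interval was -0.08 to 0.40 and for Hoxc13 -0.10 to 0.71. Differences within these intervals were not excluded.

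Noncoding genes of the clusters passed in both directions. Of 17 listed, 8 were in the table and 6 were tested, of which 1 rose and 4 fell with ET-3 and 1 rose and 2 fell with NT, against 30.6% and 33.2% of all tested genes with ET-3 and 29.7% and 32.5% with NT. Hoxa11os (chr6:52244393-52249799), transcribed from the strand opposite Hoxa11, had 27 and 30 under DMSO, 73 and 66 under ET-3 and 80 and 78 under NT. Its log2 fold changes of 1.26 (SE 0.17, adjusted p = 1.10e-04) and 1.44 (SE 0.17, adjusted p = 4.43e-05) had the direction of Hoxa11. The library kit named in the labels does not mark strand, whereas the study's methods name a stranded kit, so it is not known whether reads of the overlapping parts were told apart by strand.

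Hoxaas2 (chr6:52165674-52169564), between Hoxa2 and the 3' end of Hoxa3 with which it overlaps, had 54 and 46 under DMSO, 2 and 3 under ET-3 and 3 and 3 under NT. Both DMSO libraries stood far above all 4 treated libraries. The log2 fold changes of -3.88 (SE 0.36, adjusted p = 7.25e-06) and -3.67 (SE 0.36, adjusted p = 1.14e-05) were lower than that of any tested Hox gene. On its sides, Hoxa2 had log2 fold changes of 0.07 and 0.48 that did not pass, and Hoxa3 had 0.22 and 0.59. Hoxd3os1 had 20 and 16, 6 and 8, and 5 and 6, with log2 fold changes of -1.25 (SE 0.35, adjusted p = 0.0104) and -1.54 (SE 0.35, adjusted p = 0.00340).

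Hotair, a transcript of the Hoxc cluster between Hoxc11 and Hoxc12 that is known for its link to Polycomb, had 23 and 19 under DMSO, 12 and 13 under ET-3 and 23 and 20 under NT. It fell with ET-3 (log2 fold change -0.70, SE 0.28, adjusted p = 0.0484) and had a log2 fold change of 0.04 (adjusted p = 0.919) with NT, and the difference between the peptides did not pass (0.73, SE 0.28, adjusted p = 0.177). Hoxb3os had 44 and 39, 25 and 25, and 34 and 42, with a fall of 0.71 on the log2 scale for ET-3 (adjusted p = 0.0169) and a log2 fold change of -0.13 for NT (adjusted p = 0.630). Hotairm1 had 22 and 27, 21 and 16, and 23 and 19 and did not pass, and Hoxaas3 and Hoxb5os were not tested. Of 4 noncoding genes of the table that lie within the clusters but were not on the list, Gm15050 (chr6:52172881-52174059) alone reached a mean of 5. It is named after its values were seen, with 22 and 24 under DMSO, 7 and 8 under ET-3 and 9 and 10 under NT, and it fell with both peptides (log2 fold changes -1.50 and -1.19, adjusted p = 0.00178 and 0.00700).

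**Figure D4:**
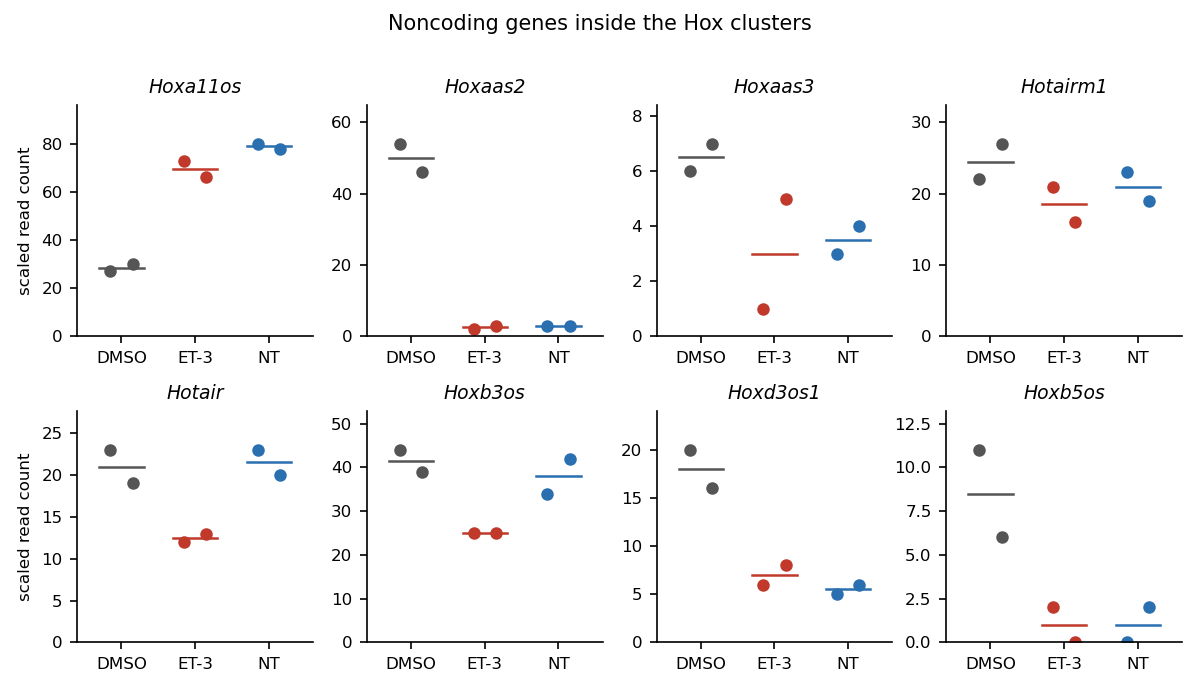
Scaled read counts (vertical axes, from 0) of 8 noncoding genes inside the Hox clusters, with 1 point per library and a line at the mean of each group of 2. Hoxa11os has 27 and 30 under DMSO and 66 to 80 with the peptides, and Hoxaas2 has 54 and 46 under DMSO and 2 or 3 with the peptides.

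Among the TALE cofactors, 8 of 9 were tested, of which 2 rose and 3 fell with ET-3, and 3 rose and 2 fell with NT. Over all tested genes, the shares were 30.6% higher and 33.2% lower with ET-3, and 29.7% and 32.5% with NT. Meis1, which marks the proximal limb, had 66 and 81 under DMSO, 124 and 111 under ET-3 and 133 and 141 under NT (log2 fold changes 0.67 and 0.90, SE 0.13, adjusted p = 0.00146 and 2.39e-04). Pknox1 and Pknox2 fell, the latter with 863 and 825, 429 and 448, and 496 and 494 (-0.94 and -0.77, SE 0.05), and Pknox1 by a log2 fold change of -0.57 and -0.33. Pbx2 fell with ET-3 (-0.30) and Pbx3 rose with NT (0.29). Meis2 and Meis3 passed in neither comparison, with log2 fold changes of -0.13 and 0.26 for Meis2 and 0.35 and 0.13 for Meis3.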

How the data were processed

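RNA from sorted, cultured MuSCs was sequenced in 6 libraries, single-end on a NextSeq500. By the study's methods, reads were trimmed, aligned to mm10 (STAR) and assigned to the exons of genes (featureCounts), without reads shared by overlapping genes and reads with several alignments. The submitters' processing notes name Trimmomatic 0.38, STAR 2.7.7a, featureCounts 1.6.5 and DESeq2 1.30.0, and the methods name other versions and another, stranded kit than the labels (SMART-Seq HT, from about 4 ng of RNA). The design text mentions triplicates, and 2 libraries per group were used. The deposited values are a signal, read counts that were scaled by the authors with 1 factor per library and rounded, as the whole numbers missing from 3 libraries show. The values are not raw counts and 2 read counts can round to the same value, so no count model was run.

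All 6 libraries entered 1 limma fit (3.58.1, R 4.3.3, eBayes with trend) of log2(value + 1), without covariates, in the 13921 genes with a mean of at least 5. The fit was tested on simulated data in which, unlike here, few genes changed, so that check does not bear on these results. Exonic lengths and coordinates came from GENCODE M21 (GRCm38), which matched 18920 of 18943 identifiers, and promoter windows from RefSeq (GRCm38.p6). By rule every member was to be named, with its value in each library if its mean was at least 5, but results for some genes are not reported here, while counts and sums include them. Of other lists, the TALE cofactors and genes called in both peptide comparisons were named. Cbx7, Phf1 and Kdm6b were added after their values were seen. The members and lists were chosen with earlier results of these data known. Alternatives covered filter, scaling, pseudocount, weights, samples and the replicate block. No value column was left unused.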

Additional observations from a re-analysis of the deposited data

How the results depend on the processing

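Hoxa9, Hoxa11 and Hoxc13 kept their direction and passed under all 17 alternatives in both peptide comparisons, and Hoxd8 did so with ET-3. No direction reversed for a member that passed. Averaging each treated pair to 1 sample moved the ET-3 counts from 4 higher and 5 lower to 2 and 3, and the NT counts from 6 and 3 to 2 and 1, with 1 called lower at 2-fold in place of 2 for NT. That alternative has fewer samples, as do the fits that leave out 1 library. In each of these fits, the share of all tested genes that passed was also lower than in the main fit, for both peptides. For ET-3, 1 member in place of 2 was called lower at 2-fold with a mean value of at least 20, cyclic loess, pseudocount 5 or the 2 groups alone. The call lost was that of Hoxc12 each time. The filter left it out, and its limma adjusted p was 0.0685 with cyclic loess and 0.0687 with the 2 groups alone. With pseudocount 5 its log2 fold change was -0.98, short of 2-fold. Leaving out each library in turn gave 4 to 6 higher and 3 to 4 lower with ET-3 (1 to 2 and 1 to 2 at 2-fold) and 3 to 6 higher and 3 to 4 lower with NT (1 to 2 and 2 to 3 at 2-fold). For ET-3, 3 were lower without DMSO replicate 1, 2 were called higher without DMSO replicate 1, and 1 was called lower without NT replicate 1 or NT replicate 2. For NT, 3 were higher without NT replicate 1 or NT replicate 2, and 2 were called higher without DMSO replicate 1. NT against ET-3 stayed at 0 members under all alternatives, where the count over all genes itself ranged from 0 to 712. Over single members, 33 results lost and 15 gained their place under some alternative. Without length correction, Hoxa supplied 51.4%, Hoxb 6.86% and Hoxc 34.4% of the summed Hox level in place of 46.5%, 5.88% and 40.3%. Over unshared exons, an alternative added after seeing the data, Hoxb supplied 6.86% and Hoxc 37.3%.

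Libraries of the same replicate number did not deviate together (correlations of -0.00798, -0.0704 and -0.0217 over 13921 genes), and with the replicate block the counts stayed at 4 higher and 5 lower for ET-3 and 6 and 3 for NT, with no call over the members changed. Scaling to library totals shifted the median log2 fold change of all genes to 0.08 for ET-3 and 0.10 for NT, and under it Hoxa10 (0.30) and Hoxc4 (0.39) passed with NT. With 2 libraries per group and values under 20 for several members, differences of less than the 95% half-widths, which had a median of 0.44 for NT against ET-3, could not be detected.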

Other observations

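Genes that keep Hox clusters repressed or active, and other factors of limb and axial identity, were followed in the same fits. Of 23 Polycomb genes, 12 rose and 6 fell with each peptide, and Cbx2 and Phf19 were called higher. Cbx2, a reader of the repressive histone mark, had 107 and 109 under DMSO, 238 and 243 under ET-3 and 274 and 288 under NT (log2 fold changes 1.15 and 1.37, SE 0.08). Phf19, an accessory subunit of the complex that writes this mark, had 32 and 41, 101 and 84, and 89 and 77 (1.32 and 1.17, SE 0.18). Cbx7 (-0.96 and -0.69) and Phf1 (-0.64 and -0.74) were among the Polycomb genes that fell with both peptides. Of 11 Trithorax and demethylase genes, 6 rose and 2 fell with ET-3, and 7 rose and 2 fell with NT. Kdm6b was called lower with ET-3 (-1.06) and fell with NT (-0.97). Over all tested genes, 30.6% rose and 33.2% fell with ET-3, and 29.7% rose and 32.5% fell with NT. At 2-fold, 6.62% of all tested genes were called higher with ET-3 and 7.30% with NT.

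Of the 10 tested genes of limb and axial identity, 1 rose and 6 fell with ET-3, and 1 rose and 7 fell with NT. Of all tested genes, 30.6% rose and 33.2% fell with ET-3, and 29.7% and 32.5% with NT. Tbx15, a T-box factor of limb and skin, had 717 and 742 under DMSO, 130 and 119 under ET-3 and 140 and 125 under NT (-2.54 and -2.45, SE 0.08). Isl1, which acts in the early hindlimb field and in head muscle, had 47 and 48, 2 and 7, and 11 and 8 (-3.31 and -2.22, SE 0.45). Gdf11, the ligand that sets the trunk-to-tail transition of Hox expression in the embryo, had 895 and 956, 309 and 299, and 316 and 318 (-1.60 and -1.54, SE 0.06). Of 7 tested genes that flank the clusters, 1 rose and 4 fell with each peptide, beside the same shares of all tested genes. Calcoco1 beside the Hoxc cluster had 863 and 870, 360 and 333, and 351 and 357 (-1.32 and -1.29, SE 0.06).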
